A study of Mus musculus with 16 samples.

Results

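Monoubiquitinated histone H2A (H2AK119ub1) was mapped by chromatin immunoprecipitation and sequencing (ChIP-seq) in mouse embryonic stem cells (ES) with and without PCGF5, and the peaks of both cell populations were compared. The peak list of wild type ES held 8672 peaks and that of PCGF5-depleted ES held 7170, together 15842 of the 86279 peaks in the 10 peak lists examined from the series. A peak was called kept when the other list overlapped it by at least 1 bp, lost when it stood in the wild type list alone, and gained when it stood in the PCGF5-depleted list alone. A gene was called marked when a peak was centred no more than 2500 bp from the start of one of its protein-coding transcripts on the mm9 assembly (GENCODE M1 annotation).

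Both groups were the Sox1-GFP ES line 46C, which carries a green fluorescent reporter at the Sox1 gene, and both were grown on mitomycin-treated mouse fibroblasts in serum with leukemia inhibitory factor and the 2i inhibitors CHIR99021 and PD0325901. Wild type ES had no other label. PCGF5-depleted ES carried the genotype label shPCGF5, a short hairpin RNA against PCGF5 that, by the methods of the study, was delivered by a lentiviral pLKO.1 vector under puromycin selection, after which clonal clusters were picked. The study also describes nuclease knockout cells, and the labels give neither the clone nor the remaining PCGF5 level of the library used, which peak lists cannot show. Feeder fibroblasts were present in both cultures. There was 1 library per group, so no difference below has a replicate check, no p-value is given, and the intervals of shares (95% Wilson) cover counting error alone. The series also holds H3K27me3 libraries of the same cells, the same marks in neural precursor cells (NPC, day 6 of neural differentiation) and Flag-PCGF5 libraries, which were used here as other readouts of the H2AK119ub1 peaks.

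H2AK119ub1 is laid down by Polycomb repressive complex 1 (PRC1), in which RING1A or RING1B is the ubiquitin ligase and a PCGF protein defines the subtype of the complex. PCGF5 belongs to the noncanonical complexes, which contain RYBP or YAF2 in place of the CBX proteins that read H3K27me3, the mark of Polycomb repressive complex 2 (PRC2). In ES both marks are known for covering the CpG-rich promoters of silent developmental genes, among them the Hox clusters and other transcription factor families.

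The following sequences carry the contrasts described below. Each is 300 bases around a peak centre, read from the forward strand of NCBIM37 (mm9), with CpG dinucleotides in capitals because median CpG density differed between kept, lost and gained peaks. The Sox11 window shows that a single lost peak can lie far above the median. Sim2 and Tlx1 are the developmental regulators that ranked highest among genes marked in both lists, and both windows lie in an intron. In the labels below, kept means that the gene was marked in both lists. For Sim2 the strongest peak of wild type (chr16:94087194-94087902), printed here, did not overlap the strongest one of depleted ES (chr16:94085274-94086973). The Sox11 window, in the exon of the gene, belongs to the highest-ranked developmental regulator marked in wild type ES alone, and the Fezf1 window, in an intron, to the highest-ranked one marked in PCGF5-depleted ES alone. Naip2 and Coro2b, both intronic, stand for high-scoring peaks on tandem copies of the unit TGCCTC, the former kept and the latter lost.
Sim2 (chr16:94087398-94087697, kept, 18 CpG): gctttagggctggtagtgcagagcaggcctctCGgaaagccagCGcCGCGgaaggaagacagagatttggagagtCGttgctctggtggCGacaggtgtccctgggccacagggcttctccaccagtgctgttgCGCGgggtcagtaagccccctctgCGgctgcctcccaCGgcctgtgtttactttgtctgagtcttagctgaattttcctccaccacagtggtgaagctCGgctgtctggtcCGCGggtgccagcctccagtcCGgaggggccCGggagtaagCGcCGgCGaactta
Tlx1 (chr19:45227662-45227961, kept, 14 CpG): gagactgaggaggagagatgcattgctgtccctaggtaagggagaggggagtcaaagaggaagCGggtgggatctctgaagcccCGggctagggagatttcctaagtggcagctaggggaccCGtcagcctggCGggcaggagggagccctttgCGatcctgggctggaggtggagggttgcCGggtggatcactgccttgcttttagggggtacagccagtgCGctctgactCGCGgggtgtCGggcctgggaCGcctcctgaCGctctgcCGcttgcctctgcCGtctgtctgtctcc
Sox11 (chr12:28026418-28026717, lost, 41 CpG): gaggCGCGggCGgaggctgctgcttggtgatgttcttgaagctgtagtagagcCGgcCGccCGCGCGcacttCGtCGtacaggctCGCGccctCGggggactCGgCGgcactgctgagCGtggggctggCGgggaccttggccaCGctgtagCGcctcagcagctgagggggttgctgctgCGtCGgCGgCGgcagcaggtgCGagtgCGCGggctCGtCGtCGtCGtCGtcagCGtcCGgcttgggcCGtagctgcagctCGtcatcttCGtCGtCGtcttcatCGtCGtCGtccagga
Fezf1 (chr6:23196968-23197267, gained, 5 CpG): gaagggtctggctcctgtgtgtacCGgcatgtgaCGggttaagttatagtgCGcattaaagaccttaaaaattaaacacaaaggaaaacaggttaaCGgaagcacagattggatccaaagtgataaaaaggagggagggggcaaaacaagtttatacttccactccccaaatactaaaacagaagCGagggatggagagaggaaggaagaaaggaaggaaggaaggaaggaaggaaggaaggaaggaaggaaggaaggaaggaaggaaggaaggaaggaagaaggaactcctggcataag
Naip2 (chr13:100964878-100965177, kept, 0 CpG): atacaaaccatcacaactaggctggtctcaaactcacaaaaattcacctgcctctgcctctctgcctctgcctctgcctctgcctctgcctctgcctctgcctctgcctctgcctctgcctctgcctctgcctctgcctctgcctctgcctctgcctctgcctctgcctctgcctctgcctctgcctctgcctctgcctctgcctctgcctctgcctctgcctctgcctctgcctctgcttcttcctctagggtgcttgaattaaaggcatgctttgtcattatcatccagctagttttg
Coro2b (chr9:62360296-62360595, lost, 0 CpG): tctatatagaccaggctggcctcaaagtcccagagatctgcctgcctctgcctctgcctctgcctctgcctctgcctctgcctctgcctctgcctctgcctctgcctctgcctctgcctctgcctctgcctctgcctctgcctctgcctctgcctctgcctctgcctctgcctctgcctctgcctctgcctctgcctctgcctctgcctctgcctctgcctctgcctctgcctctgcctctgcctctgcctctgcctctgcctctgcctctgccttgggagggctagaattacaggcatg

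Most wild type peaks had no partner in the list of depleted ES. Of 8672 wild type peaks 2187 were kept (25.2%, 24.3 to 26.1) and 6485 were lost, and of 7170 PCGF5-depleted peaks 2197 were kept (30.6%, 29.6 to 31.7) and 4973 were gained. The peaks covered 2.49 Mb in wild type and 2.09 Mb in PCGF5-depleted ES, with median widths of 217 and 222 bp. With peaks within 1000 bp of each other also counted as shared, 38.5% of the wild type and 44.3% of the PCGF5-depleted peaks were kept, and 57.1% and 62.4% lay within 10000 bp of a peak of the other list. From maps of tag density, the study reported that the genomic distribution of H2AK119ub1 changed little without PCGF5. Tag density and the overlap of peak calls are different measures.

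Peaks with the highest scores in their own library were held most often by the other list. In the lowest 10% of the wild type list by −log10 p 14.7% (12.5 to 17.2) of the peaks were kept, against 64.8% (61.6 to 67.9) in the highest 10%. The same shares of the PCGF5-depleted list were 18.7% (16.1 to 21.7) and 60.8% (57.2 to 64.3). The steps in between did not climb evenly, since the wild type step just above the lowest stood at 9.92% (8.07 to 12.1). Even so, 305 wild type and 281 PCGF5-depleted peaks of the highest 10% had no partner. A peak absent from a list may still hold signal below the threshold of the peak caller, which the lists do not show.

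**Figure D1:**
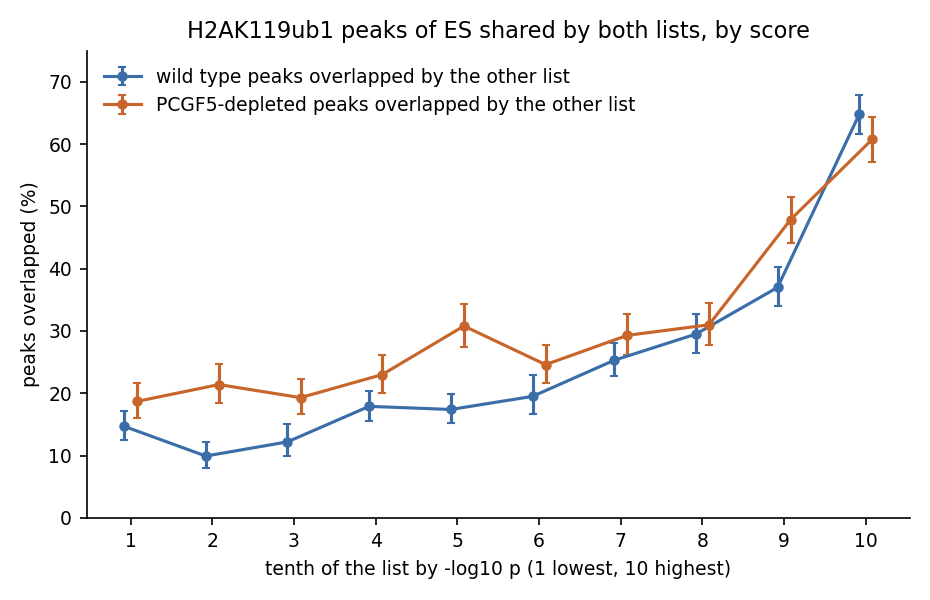
Share of H2AK119ub1 peaks (%) overlapped by the other ES list, for each 10% step of a list by −log10 p, with wild type peaks in blue and PCGF5-depleted peaks in orange and bars for 95% Wilson intervals. The share lies between 9.92% and 37.0% in the lower 9 steps of the wild type list and reaches 64.8% in the highest.

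Kept peaks were wider and richer in CpG than lost and gained peaks. The median width was 303 bp for kept wild type peaks, 201 bp for lost and 200 bp for gained peaks. A wider peak is more likely to meet a peak of the other list, so the sorting rule itself favours wider kept peaks. Within 500 bases around the centre the median CpG density was 2.20 per 100 bases in kept, 1.40 in lost and 1.00 in gained peaks. GC content followed the same order, with medians of 56.6%, 55.4% and 51.2%. At promoters alone the CpG medians were 3.80, 2.60 and 2.00, beside 3.60 over the start sites of all 22232 protein-coding genes. Of the kept wild type peaks 39.1% (37.1 to 41.2) were centred at a promoter, of the lost peaks 27.1% (26 to 28.2) and of the gained peaks 27.9% (26.7 to 29.2). Lost peaks were most often intronic (33.4%) and gained peaks most often intergenic (38.5%). The gap between kept and lost peaks at promoters, 12 percentage points, was 4.28 with a promoter window of 1000 bp and 1.85 for the higher-scoring 50% of each list.

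The H3K27me3 lists, which played no part in sorting the peaks, separated the kept peaks from the others. In wild type ES 67.1% (65.1 to 69.0) of the kept peaks were overlapped by H3K27me3, against 29.3% (28.2 to 30.4) of the lost and 14.3% (13.4 to 15.3) of the gained peaks. In PCGF5-depleted ES the H3K27me3 list overlapped 55.6%, 16.5% and 14.9% of the same peaks. Kept and lost peaks thus both coincided with H3K27me3 less often in the depleted than in the wild type cells, while the share of gained peaks was close in both H3K27me3 lists. The depleted H3K27me3 list was also shorter, with 10234 against 11808 peaks, which can lower such shares. For H3K27me3 of wild type ES the order of kept, lost and gained was the same in each of 3 equal score ranges. In the highest range the shares were 80.2%, 45.9% and 17.3%. Kept peaks were also wider, and these shares were not compared at equal width.

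The NPC lists gave another order. H2AK119ub1 of wild type NPC overlapped 42.6% (40.5 to 44.7) of the kept, 7.62% (7 to 8.29) of the lost and 17.0% (15.9 to 18) of the gained peaks. H3K27me3 of wild type NPC overlapped 63.7%, 21.3% and 30.4%. Places gained in ES without PCGF5 were therefore marked in wild type NPC more often than places lost, on both marks. Flag-PCGF5 of ES overlapped 0.274% of the kept, 0.493% of the lost and 0.101% of the gained peaks. For Flag-PCGF5 of NPC the shares were 5.85%, 4.33% and 3.02%. These shares depend on the size of the Flag-PCGF5 lists, since that of ES had a promoter peak at 0.787% of all protein-coding gene names. That of NPC had one at 13.7% of all names. It had one at 25.2% of genes marked in both ES lists, 19.4% of those in wild type alone and 16.6% of those in depleted ES alone.

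**Figure D2:**
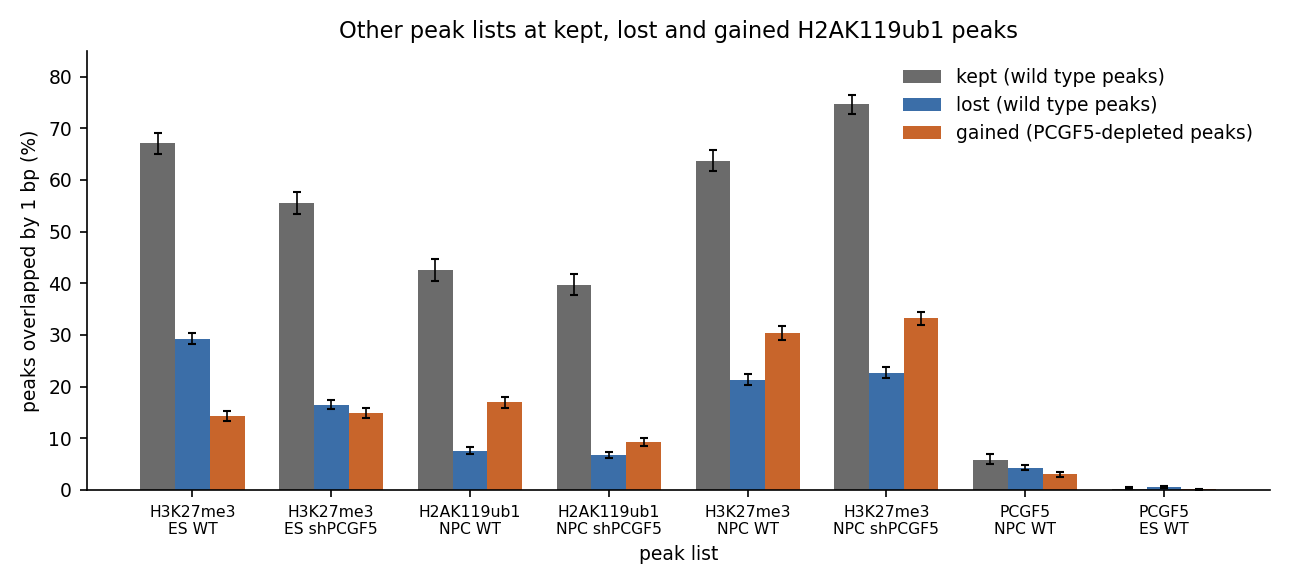
Share of kept (grey), lost (blue) and gained (orange) H2AK119ub1 peaks of ES overlapped by at least 1 bp by each of 8 other peak lists (%), with 95% Wilson intervals. Kept peaks lead in the 4 H3K27me3 lists and both NPC H2AK119ub1 lists, and gained peaks stand above lost ones in the 4 histone lists of NPC.

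Among kept places where 1 peak met exactly 1 peak, the enrichment was mostly lower without PCGF5. Over 1745 such pairs the median fold enrichment over the background of the own library was 5.02 in wild type and 3.92 in PCGF5-depleted ES, the median log2 ratio was −0.32, and 73.8% of the pairs were lower in the depleted cells. This fold is relative to each library's own background, and over the whole lists the medians were 4.61 and 4.00. Pairs under H3K27me3 had a median log2 ratio of −0.44 and pairs outside it of −0.15. The 229 pairs at promoters of developmental regulators had a log2 ratio of −0.22 and were wider in depleted ES, with median widths of 305 bp in wild type and 363 bp in depleted ES, whereas the medians over all pairs were 286 and 281 bp.

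Genes were then compared. Of 22232 protein-coding gene names 1488 (6.69%) were marked in wild type ES and 1324 (5.96%) in PCGF5-depleted ES. The 726 genes marked in both were 48.8% of the wild type genes and 54.8% of the depleted genes, 762 genes (3.43% of all names) were marked in wild type alone and 598 (2.69%) in PCGF5-depleted ES alone. When the wild type list was cut to its 7170 highest-scoring peaks the order turned, with 615 lost and 653 gained genes. At the start sites of genes marked in both, 93.5% had a promoter H3K27me3 peak in wild type ES, against 66.7% of lost genes, 48.2% of gained genes and 13.4% of all genes. With a promoter window of 1000 bp the genes in both numbered 390 and the gained genes 391, and with the higher-scoring 50% of each list 375 and 374. A touch of the promoter window by a peak of the other list, centred outside it, was found for 8 lost and 11 gained genes.

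Transcription factors that govern development had the largest share of genes marked in both lists among the 4 groups of gene lists (developmental, signalling, neuronal and structural). The 9 lists of such genes (Hox, other homeobox, Pax, forkhead, T-box, Sox, GATA, basic helix-loop-helix (bHLH) and zinc-finger regulators) held 355 genes, of which 197 were marked in wild type and 224 in PCGF5-depleted ES. Of the 197, 177 were marked in both (89.8%, 84.8 to 93.3), 20 were lost, and 47 were gained, whereas of all other genes marked in wild type ES 42.5% (39.9 to 45.2) were marked in both. The length of H2AK119ub1 at their promoters was 250063 bp in wild type and 302307 bp in depleted ES, a log2 ratio of 0.27, beside −0.35 for all other genes. Developmental regulators had more and stronger peaks than other genes and were therefore also compared within ranges of peak number. Among genes with 1 wild type promoter peak 67.9% (54.5 to 78.9) of the developmental regulators and 30.4% (27.4 to 33.6) of the others were marked in both, and among genes with 2 or more peaks 97.9% and 64.5%. Peak number may still differ within the range of 2 or more peaks. Over all genes marked in both, developmental regulators had a mean of 3.28 wild type promoter peaks and other genes 2.12. With promoter H3K27me3 in wild type ES the shares were 91.6% and 50.6%. The 89.8% became 76.9% with a window of 1000 bp and 80.9% with the higher-scoring 50% of each list.

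**Figure D3:**
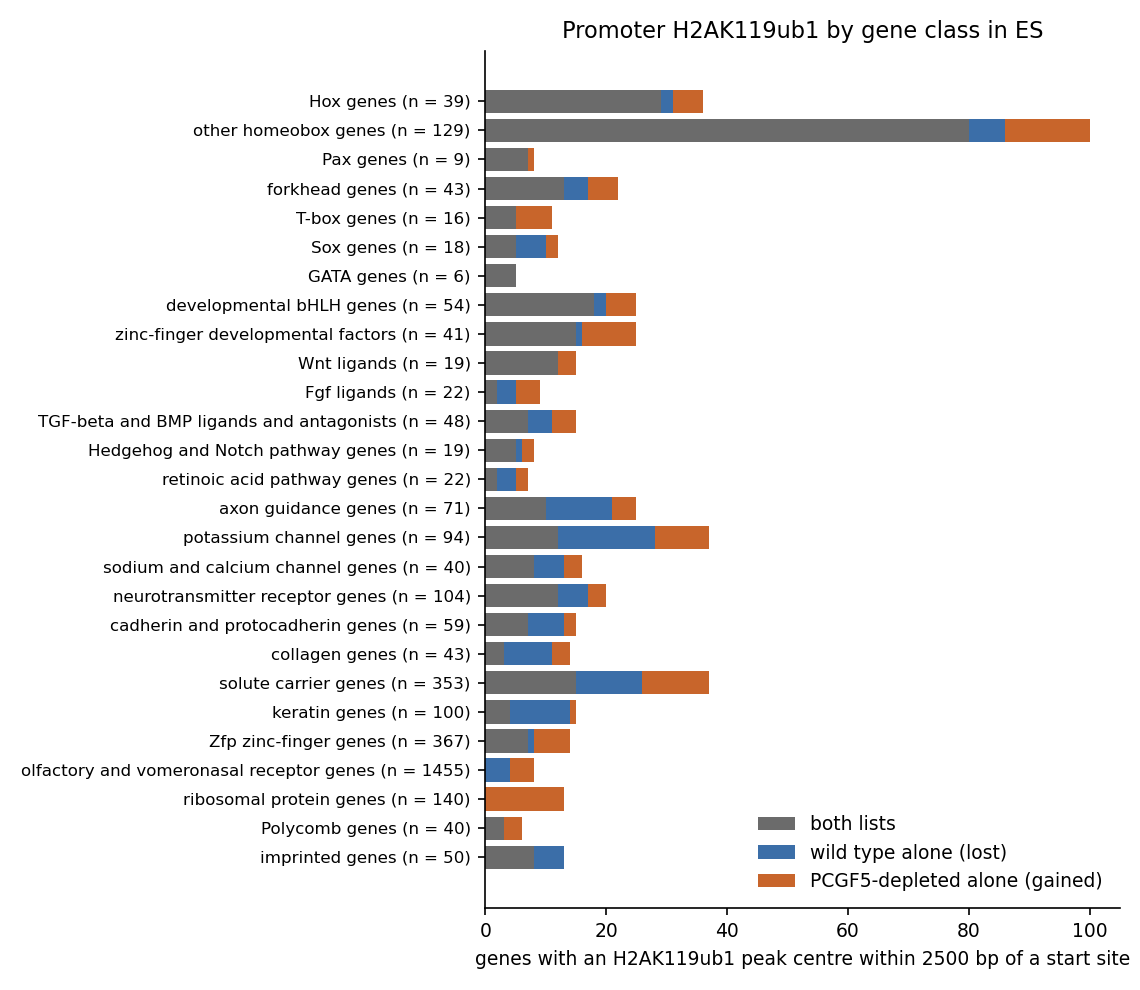
Number of genes of each class marked by H2AK119ub1 in both ES lists (grey), in wild type alone (blue) and in PCGF5-depleted ES alone (orange), with the class size after each name. The 80 homeobox genes and 29 Hox genes marked in both form the longest grey bars, and the ribosomal protein genes have 13 gained and 0 others.

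Hox genes, which give segments of the body axis their identity, were marked more broadly without PCGF5. Of 39 Hox genes 31 were marked in wild type and 34 in depleted ES, 29 in both. The genes of paralogue group 4 were gained in all 4 clusters: Hoxa4 had 0 promoter peaks in wild type and 3 in PCGF5-depleted ES, Hoxb4 0 and 4, Hoxc4 0 and 1, and Hoxd4 0 and 4. Hoxc10 was the fifth gained Hox gene. The strongest peak of Hoxa4 in depleted ES (chr6:52140009-52140430) had a fold of 5.74 and that of Hoxb4 (chr11:96178519-96179455) a fold of 5.17. All 4 genes of the group except Hoxc4 already had a promoter H3K27me3 peak in wild type ES, and all 4 had H2AK119ub1 in both NPC lists. Among the lost Hox genes Hoxd1 had 1 wild type peak, at the 16 percentile of the scores. This percentile is the rank of a peak within its list by −log10 p, with tied peaks sharing their mean rank.

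Whole Hox clusters gave the same picture as their promoters. HoxA (chr6:52105794-52213374) held 50 peaks in wild type and 64 in depleted ES, over 19525 and 23693 bp. HoxB (chr11:96053130-96229566) held 48 and 67 peaks over 15180 and 31205 bp, HoxC (chr15:102749034-102867326) 19 and 46 peaks over 5654 and 17365 bp, and HoxD (chr2:74503867-74603537) 36 and 47 peaks over 11617 and 21354 bp. Peak number and length were thus higher without PCGF5 in each of the 4 clusters. H3K27me3 peaks there did not share one direction, and numbered 38 and 34 in HoxA, 44 and 38 in HoxB, 15 and 29 in HoxC and 45 and 44 in HoxD.

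The other homeobox genes, which include regulators of brain, eye, limb and gut, were the largest class. Of 129 genes 86 were marked in wild type and 94 in depleted ES, 80 of them in both. Tlx1, a homeobox gene needed to form the spleen, had 3 promoter peaks in each list, with the strongest at a fold of 7.53 in wild type and 6.85 in depleted ES, and 1663 against 2854 bp covered. Pitx1, a hindlimb regulator, had 7 and 9 peaks over 4666 and 4990 bp. Lmx1b, a regulator of dorsal limb and midbrain neurons, had 7 and 5 promoter peaks, the strongest with a fold of 9.68 in wild type and 5.94 in depleted ES. The 14 gained genes included Gbx2, Gsx2, Lhx4, Meis1, Mkx, Nkx1-2, Otp, Pitx3, Pou2f2, Pou3f2, Pou4f2, Prrx1 and Six6. Six6, an eye and pituitary regulator, stood highest among them, with 2 peaks in depleted ES and a fold of 4.94. The 6 lost genes were Cdx1, Dlx4, Meis3, Msx3, Pou6f1 and Tlx2, and Meis3 had the strongest wild type peak (fold 6.34, 251 bp). The gained and lost regulators were listed after their values were seen.

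T-box and zinc-finger regulators were marked in more genes without PCGF5. Over all 355 developmental regulators 55.5% were marked in wild type and 63.1% in depleted ES. Over all genes these shares were 6.69% and 5.96%, and 2.69% were gained. Of 16 T-box genes 5 (31.2%) were marked in wild type and 11 (68.8%) in depleted ES. All 5 were kept (Tbx1, Tbx2, Tbx4 and the mesoderm gene T, or Brachyury, among them), and 6 were gained: Eomes and Tbr1, regulators of endoderm and of cortical neurons, and Tbx15, Tbx18, Tbx20 and Tbx21. Eomes had 0 promoter peaks in wild type and 4 in depleted ES over 1147 bp, and Tbx15 had 0 and 4 over 1320 bp. Of these 6 gained genes 5 had promoter H3K27me3 in wild type ES. Of 41 zinc-finger regulators 39.0% were marked in wild type and 58.5% in depleted ES. Ebf4 was the 1 lost gene and 15 were marked in both. The 9 gained genes were Bcl11a, Fezf1, Ikzf1, Ikzf3, Osr2, Prdm8, Sall3, Snai1 and Sp8. Fezf1, a forebrain regulator, had the strongest peak of the gained developmental genes (chr6:23196893-23197343, fold 6.13), and its window printed above has a run of 17 copies of GGAA. Bcl11a, a regulator of neurons and of globin genes, had 0 and 3 peaks over 1453 bp.

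Pax, GATA and bHLH genes marked in wild type ES were nearly all marked in depleted ES. All 7 Pax genes marked in wild type ES were marked in depleted ES, among them Pax6, the eye and forebrain regulator, with 9 and 15 promoter peaks over 4747 and 6898 bp. Pax7, Pax2 and Pax9 stood beside it, and Pax4 was gained with 1 peak at the 3.88 percentile. All 5 marked GATA genes were marked in both lists, with Gata4, a heart and endoderm regulator, at 5 and 2 peaks and Gata2, a blood regulator, at 5 and 7. Of 20 bHLH genes marked in wild type 18 were marked in both. Sim2, a relative of the fly midline gene single-minded, had 6 and 5 peaks. Its strongest peak had a fold of 7.89 in wild type and 7.65 in depleted ES, at places that did not overlap. Neurog1, a proneural gene, had 1 and 5 peaks over 754 and 2372 bp. Myod1 and Olig1 were lost, and Bhlhe22, Bhlhe23, Id1, Olig3 and Sim1 were gained.

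Of the Sox genes about as large a share was marked in both lists as over all genes. Of 18 genes 10 were marked in wild type and 7 in depleted ES, with 5 in both (50% of the wild type genes, 23.7 to 76.3, beside 48.8% over all genes), 5 lost and 2 gained. The promoter length covered was 4824 and 3080 bp. Sox9, Sox14, Sox4 and Sox10 were marked in both. The lost genes were Sox8, Sox11, Sox18, Sox21 and Sox30, and the gained ones Sox7 and Sox17, which are endoderm and vessel regulators. Sox11, a gene of immature neurons, had 1 wild type peak (chr12:28026352-28026784, fold 6.45) and none in depleted ES, while its promoter had H3K27me3 in both. All 5 lost Sox genes had promoter H3K27me3 in both ES lists. Of the forkhead genes 17 and 18 of 43 were marked, 13 in both (76.5%, 52.7 to 90.4), 4 lost (Foxi1, Foxi3, Foxk1 and Foxo3) and 5 gained (Foxa1, Foxi2, Foxj2 and Foxs1 among them).

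Of the 47 gained developmental regulators 35 already had promoter H3K27me3 in wild type ES and 40 had it in depleted ES. Of the 20 lost ones 16 had it in each list. The 177 genes marked in both had it in 175 and 170 cases, and 167 of them were marked by H2AK119ub1 in wild type NPC.

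Signalling genes had the next largest share in both lists. Of 130 genes in 5 lists 39 were marked in wild type and 43 in depleted ES, 28 of them in both (71.8%, 56.2 to 83.5). All 12 Wnt ligands marked in wild type ES were kept, and Wnt5b, Wnt6 and Wnt8b were gained. Wnt5b had 0 and 3 promoter peaks, the strongest with a fold of 5.03. Fgf ligands differed between the lists, with Fgf8 and Fgf9 in both lists, Fgf3, Fgf4 and Fgf18 lost and Fgf2, Fgf15, Fgf17 and Fgf21 gained. Fgf8, a signal of brain and limb patterning, had 3 and 1 peaks, at the 95.4 and 15.8 percentile of the scores of its list. Among TGF-beta and BMP genes Bmp1, Bmp6, Bmp7 and the antagonist Fst were marked in both, Bmp2, Fstl4, Gdf10 and Inhbb were lost, and Bmp4, Bmp8b, Gdf7 and Nbl1 were gained. In the Hedgehog and Notch pathways Shh, Ihh, Dll1 and Dll4 were marked in both, Jag2 was lost, and Ptch1 and Dhh were gained. Dll4, a Notch ligand of blood vessels, had 4 peaks in each list with folds of 8.24 and 5.87. In the retinoic acid pathway the degrading enzymes Cyp26a1 and Cyp26b1 were kept, the synthesizing enzyme Aldh1a2 was lost and Aldh1a3 was gained.

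Most of the genes that the study followed by name had no promoter peak. Nodal, Lefty1 and Lefty2, ligands and antagonists of the TGF-beta pathway, had 0 promoter H2AK119ub1 peaks in both ES lists, as had Cdh2 and Pcgf5 itself. The study measured the mark at Nodal, Lefty1 and Lefty2 in ES by quantitative PCR on immunoprecipitated chromatin. It reported a lower level without PCGF5 at Lefty1 and Lefty2 and an unchanged one at Nodal. A peak call is another measure, and a missing peak does not show that the mark was absent or unchanged. Nes, which encodes the neural filament nestin, had 1 peak in each (fold 3.94 and 3.76). Pou3f2, a neural POU factor, had 0 in wild type and 1 in depleted ES (chr4:22415993-22416450, fold 4.06). Sox1 has no entry in the annotation used.

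Genes of differentiated neurons were marked in both lists about as often as all genes, and their promoter length was lower in depleted ES. Of 309 genes in 4 lists 79 were marked in wild type and 61 in depleted ES, 42 in both (53.2%, 42.3 to 63.8, beside 48.8% over all genes), with 37 lost and 19 gained. The promoter length was 48223 against 26316 bp, a log2 ratio of −0.87, beside −0.14 over all genes and −0.35 over all but the developmental regulators. Axon guidance genes had a log2 ratio of −1.58, with 10 genes in both lists, 11 lost and 4 gained. Sema5b had 4 and 3 peaks over 1530 and 664 bp. Plxna1, a semaphorin receptor, had 2 and 0 peaks, and the netrin genes Ntn1 and Ntn3 each had 1 and 0. Of the 11 lost genes 9 had promoter H3K27me3 in wild type and 9 in depleted ES. Potassium channel genes had 12 in both (42.9% of the wild type genes, 26.5 to 60.9). Of the others 16 were lost (Kcnj4, Kcnk2, Kcne3 and Kcnab2 with the strongest peaks) and 9 gained (Kcnq5, Kcnk12 and Kcna2 among them). Sodium and calcium channel genes had a log2 length ratio of −1.01, and Cacna1h, a T-type calcium channel gene, had 5 peaks over 1752 bp and 1 over 512 bp. Neurotransmitter receptor genes had 12 in both (70.6% of the wild type genes, 46.9 to 86.7), 5 lost and 3 gained.

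The share of structural genes in both lists was also close to that over all genes. Of 555 genes in 4 lists 64 were marked in wild type and 46 in depleted ES, 29 in both (45.3%, 33.7 to 57.4, beside 48.8%). Of the keratin and keratin-associated genes 14 were marked in wild type and 5 in depleted ES, over 4838 and 990 bp, a log2 ratio of −2.29 that was the lowest among the gene lists with a peak on both sides. Krtap5-4, Krt71, Krt80 and Krtap31-2 had the strongest lost peaks, and Krt8 was the single gained gene. Collagen genes had 3 in both (27.3% of the wild type genes, 9.75 to 56.6), 8 lost (Col27a1 and Col6a3 among them) and 3 gained. Solute carrier genes, which encode membrane transporters, had 15 in both, 11 lost and 11 gained of 353. In each list 7.37% of them were marked, beside 6.69% and 5.96% of all genes. Olfactory and vomeronasal receptor genes, 1455 in all, had 4 lost, 4 gained and 0 in both, with 0.275% marked in each list. Of 367 genes with a Zfp symbol 7 were marked in both, 1 was lost and 6 were gained, with 2.18% marked in wild type and 3.54% in depleted ES.

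Genes of the Polycomb system and of the stem cell state were marked in few cases. Cbx8 and the PRC1 partner gene Bcor were marked in both lists, and Cbx2, Kdm2b and Auts2, which encodes a partner of PCGF5, were gained, each with 1 peak. Bcor, on the X chromosome, had 1 promoter peak in wild type and 6 in depleted ES over 279 and 1544 bp. Of 30 pluripotency genes Esrrb and Fgf4 were lost and Dppa3, Dnmt3l and Gbx2 were gained, with 0 in both. Of 48 germline genes Figla, Tdrd6, Slc25a31 and Tex101 were lost and Spo11, Zcwpw1 and Piwil1 gained, with 0 in both.

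The lower peak number of depleted ES was unevenly spread along the genome. Of 1657 windows of 1 Mb with a peak in either list 676 had fewer, 717 more and 264 the same number of peaks in depleted ES. The 10 windows with the largest deficit held 847 peaks in wild type and 333 in depleted ES, and their H3K27me3 peaks numbered 558 and 408. The largest deficits were in windows of distal chromosome 7 that hold imprinted genes. The window of chromosome 7 from 150 Mb, with Kcnq1, Ascl2, Cdkn1c and Phlda2, held 141 and 46 peaks, and the window from 149 Mb, with Igf2 and Ins2, 97 and 16. Other deficits were on chromosome 12 from 113 Mb (80 and 20 peaks), on chromosome 8 in the window of Foxf1a and Foxc2 (81 and 34), and on chromosome 4 in that of Wnt4 and Ephb2 (59 and 14). The 10 windows with the largest excess held 288 and 465 peaks in all, and those of the 4 Hox clusters were among them, at 53 and 83 (HoxB), 26 and 54 (HoxC), 63 and 78 (HoxA) and 41 and 52 (HoxD). The window of chromosome 9 from 3 Mb, which holds the gene models Gm10715 to Gm10722, had 0 and 22. The most crowded window, chromosome 6 from 114 Mb which holds the GABA transporter gene Slc6a11, had 167 and 133. The peaks of chromosome 7 as a whole numbered 766 and 434.

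**Figure D4:**
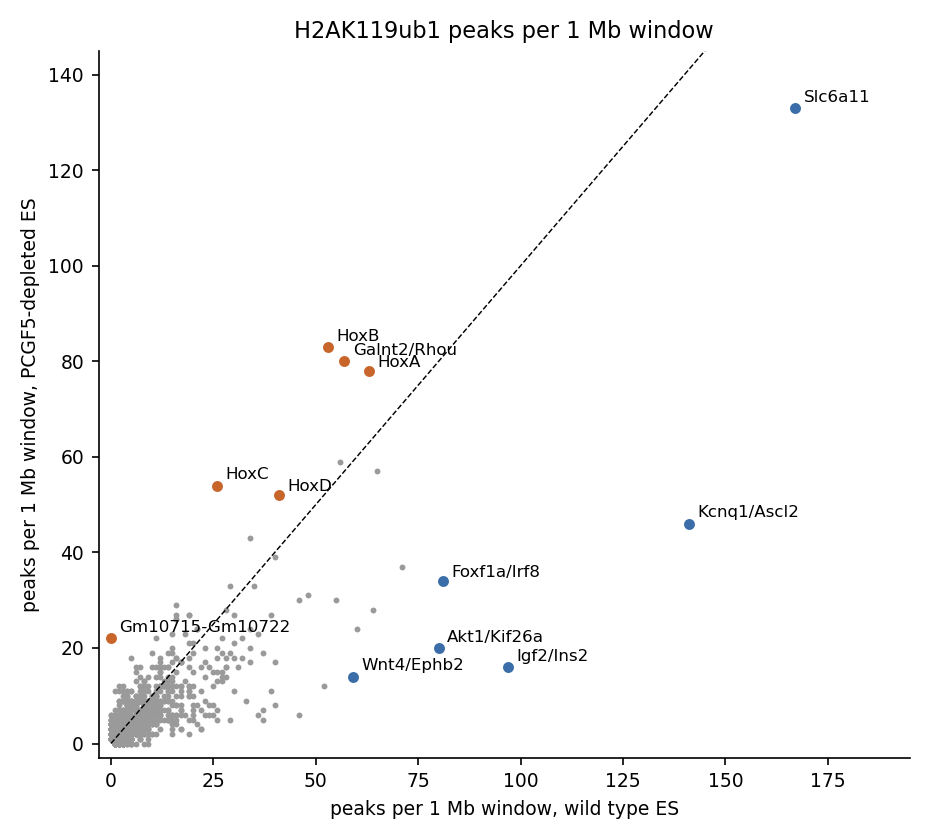
Number of H2AK119ub1 peaks in each 1 Mb window in wild type (x axis) and PCGF5-depleted ES (y axis), with the line of equal numbers dashed and selected windows of lower (blue) or higher (orange) number named by genes they hold. The Kcnq1/Ascl2 window lies at 141 and 46 and the HoxB window at 53 and 83.

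Of 50 imprinted genes, which are expressed from the maternal or the paternal copy alone, 13 were marked in wild type and 8 in depleted ES. All 8 were marked in both, 61.5% (35.5 to 82.3) of the wild type genes beside 48.8% over all genes, and Dlk1, Ins2, Kcnq1, Slc22a18 and Th were lost. Their promoter length was 15439 and 6797 bp, a log2 ratio of −1.18. Much of it lay on distal chromosome 7, where Igf2 had 4746 and 1842 bp, Th 1511 and 0 bp and Kcnq1 1472 and 0 bp. Kcnq1, the potassium channel gene whose intron starts a long noncoding RNA, held 97 peaks from its start to its end in wild type ES (chr7:150293159-150612955) and 22 in depleted ES, and its H3K27me3 peaks numbered 38 and 9. Igf2, the fetal growth factor, held 12 and 5 peaks, and Th, which encodes tyrosine hydroxylase, 9 and 2. Cdkn1c, a cell cycle inhibitor in the same domain, went the other way in peak number alone, with 1 and 3. Its covered promoter length was 1775 and 1269 bp, and its strongest peak had a fold of 6.09 and 3.69. Imprinted genes of other chromosomes, such as Gnas (3 and 2), Dlk1 (1 and 0) and Grb10 (4 and 5), differed little in peak number.

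Several gene bodies held many fewer peaks in depleted ES. Rbfox3, which encodes the neuronal marker NeuN, held 36 peaks in wild type and 7 in depleted ES. Cdh23, a cadherin of hair cells, held 32 and 5, Glis1 23 and 0, Elfn2 22 and 1, and the synaptic scaffold gene Shank2 22 and 3. Their H3K27me3 peaks numbered 27 and 12 in Rbfox3, 10 and 10 in Cdh23, 12 and 3 in Glis1, 16 and 5 in Elfn2 and 14 and 2 in Shank2. H3K27me3 peaks were therefore fewer in 4 of these 5 genes, and equal in Cdh23. Other genes held more peaks in depleted ES. Ostm1 held 5 and 15, Bcor 2 and 12, Tbx15 1 and 8, Nrn1 1 and 8, Pax6 7 and 13 and Prdm8, a regulator of neurons and retina, 0 and 5.

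**Figure D5:**
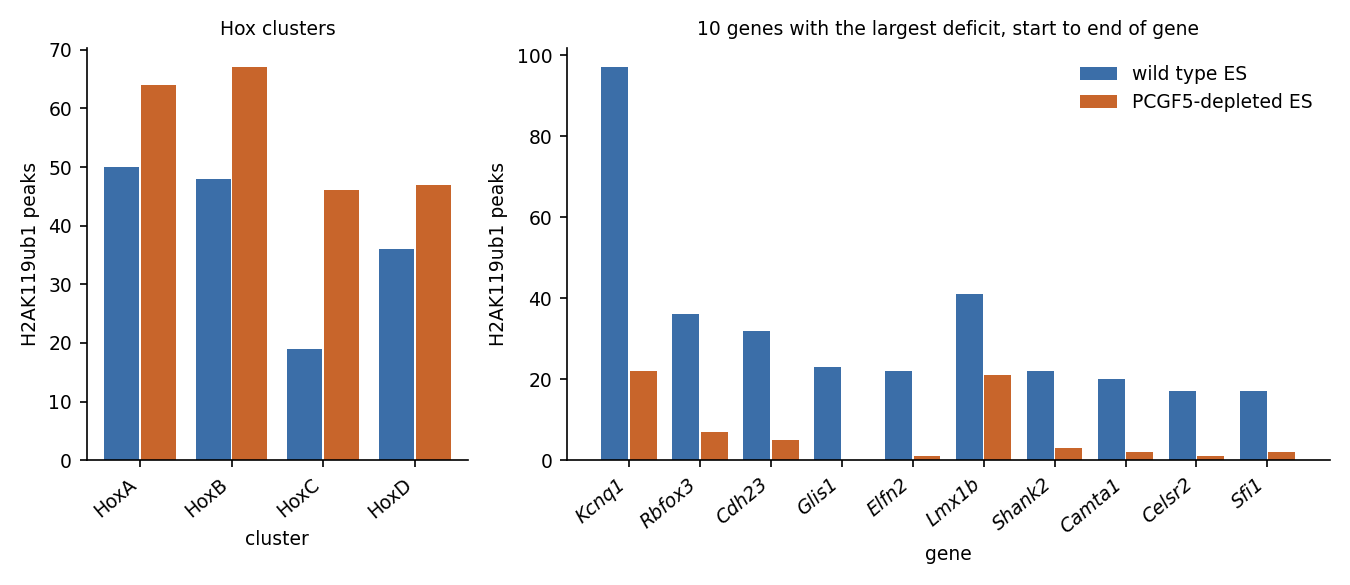
Number of H2AK119ub1 peaks in wild type (blue) and PCGF5-depleted ES (orange), on the left across each Hox cluster and on the right from start to end of the 10 genes with the largest deficit in depleted ES, leaving out the gene model Gm20388, which spans 4430 kb of other genes. All 4 Hox clusters are higher in orange, and Kcnq1 has 97 and 22 peaks.

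Several of the highest-scoring peaks lay on repeated or multi-copy sequence, in both lists. Of the genes marked in both, Gm10807, Naip2, Dux, 4933403O03Rik, Stk32c and the gene models Gm13279, Gm13285 and Gm13290 ranked above Sim2, Dll4 and Tlx1. Dux, an activator of early embryonic genes that lies in a tandem array, had 7 peaks in each list over 2901 and 1579 bp. The Naip2 peak had folds of 9.86 and 8.36. Among lost genes Coro2b, an actin regulator, came first (chr9:62360356-62360536, fold 10.8), followed by Gm3715, B230312A22Rik, Bnc1, 2610042L04Rik, Gm8206, Igf1r, Tnk1, Sh3bgr and Fcgr3. The windows printed for Naip2 and Coro2b hold runs of 29 and 38 copies of TGCCTC. At least 3 copies in a row, on either strand within 500 bases around the centre, were found in 9.88% of the kept, 3.25% of the lost and 2.33% of the gained peaks, against 0.0360% of windows of the same length at start sites. Without peaks on runs of this unit or of 2 shorter ones (GGAA and the dinucleotide of C and A) 22.7% of the wild type peaks were kept. The part of repeat mapping in these peaks was not tested.

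The highest-scoring gained genes were of another kind. Reg3b, which ranked first, and Reg3g, which ranked after several of the genes named next, encode secreted gut lectins. They had 3 and 2 promoter peaks in depleted ES and 0 in wild type, the strongest of Reg3b with a fold of 21.4 (chr6:78323176-78323461). The others of highest rank were mitochondrial genes, Gm10925, Zg16, Gm10222, Gm17498 with Rps27a-ps2, Zc3h10 and Rps26-ps1. Of the 50 gained peaks with the highest scores 22 were centred in an exon and 7 were overlapped by H3K27me3 of wild type ES, against 5 and 41 of the 50 highest lost and 1 and 50 of the 50 highest kept wild type peaks. These gained peaks thus differed from both other sets in place and in the companion mark.

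Mitochondrial DNA is not packed into nucleosomes, and its peaks are shown for that reason. The depleted ES list had 6 peaks on the mitochondrial genome and the wild type ES list 0. Mitochondrial peaks were not confined to depleted cells. In NPC, mt-Co1 and mt-Co2 among others had a promoter H2AK119ub1 peak in the wild type list and none in the depleted list. Another 3 gained peaks, on chromosome 1, had all their 36-base words in the mitochondrial genome (100%). The mitochondrial window below lies in the exon of mt-Co1 and the nuclear window beside the gene model Gm10925, outside its exons.
mt-Co1 (chrM:5980-6279, gained, 6 CpG): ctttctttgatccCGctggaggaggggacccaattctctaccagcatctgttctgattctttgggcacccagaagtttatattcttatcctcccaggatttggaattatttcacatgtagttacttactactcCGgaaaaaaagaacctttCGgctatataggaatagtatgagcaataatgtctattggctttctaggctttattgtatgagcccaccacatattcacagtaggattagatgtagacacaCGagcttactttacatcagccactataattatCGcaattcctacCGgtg
Gm10925 (chr1:24622254-24622553, gained, 3 CpG): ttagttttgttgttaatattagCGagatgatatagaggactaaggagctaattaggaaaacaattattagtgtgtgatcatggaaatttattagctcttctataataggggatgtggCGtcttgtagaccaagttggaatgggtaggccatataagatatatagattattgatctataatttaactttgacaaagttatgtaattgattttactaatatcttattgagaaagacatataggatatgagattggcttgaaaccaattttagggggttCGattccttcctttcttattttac

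Ribosomal protein genes and their processed copies were also marked in depleted ES alone. Of 140 such genes 0 were marked in wild type and 13 (9.29%) in depleted ES, beside 6.69% and 5.96% of all genes. Rps27a-ps2, Rps26-ps1, Rps15 and Rplp0 had the strongest peaks (folds of 12.4, 10.6, 6.59 and 6.91). A peak over an exon was found at 14 of the 140 genes in depleted ES and at 0 in wild type, and in the H3K27me3 lists at 6 and 0. Replication-dependent histone genes, 67 in all, had 0 marked in both lists. All 13 mitochondrial genes, 68 genes with a Gm symbol and 8 with a pseudogene symbol stood among the 598 gained genes, beside 0, 68 and 0 among the 762 lost. These were 2.17%, 11.4% and 1.34% of the gained genes, against 0.0585%, 9.08% and 0.580% of all names, so that the share of Gm symbols was near the background. What part mapping, depth or the input of the library had in the gained list was not tested. Read numbers were not used here, but the sequencing summary of the study lists the depleted H2AK119ub1 library as read more deeply than the wild type one, so depth and PCGF5 cannot be told apart here.

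The same steps were applied to the other pairs of lists for comparison, with 1 library on each side and no test between them. Of wild type H2AK119ub1 peaks of NPC 26% were kept, of H3K27me3 peaks of ES 35.1% and of H3K27me3 peaks of NPC 58.5%, beside 25.2% for H2AK119ub1 of ES. Developmental regulators were marked in both lists in 82.1% of the cases marked in wild type for H2AK119ub1 of NPC, 91.4% for H3K27me3 of ES and 96.5% for H3K27me3 of NPC, beside 89.8%. All other genes stood at 41.8%, 68.8% and 74.2%, beside 42.5%. The higher share of developmental regulators was therefore seen in all 4 pairs of lists.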

How the data were processed

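H2AK119ub1 peaks of wild type and PCGF5-depleted ES were compared, with 1 library per group. Per the methods of the study, histone chromatin was digested with micrococcal nuclease and lightly fixed, reads were trimmed with Trimmomatic, aligned to mm9 with Bowtie2 and cleared of duplicates with Picard, and the authors called peaks in each library alone with MACS2 (version 2.1.0 in the submitters' processing notes). A fly chromatin spike-in does not enter the peak lists. Each peak in the deposited lists has a fold enrichment over the background of the same library (a ratio), −log10 p- and q-values, and a score of 10 times the −log10 p-value. Peaks were called per library, so the length of a list depends on depth and background, and fold values are not comparable between libraries without that limit. Read totals are not in these lists, so the depth behind a value was not computed. The study's sequencing summary puts the depleted library above the wild type one in reads. The lowest −log10 p-value was 4.03 in wild type and 4.00 in depleted ES, and q-values above 0.05 made up 0.311% and 2.50%.

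Overlaps were computed in Python 3.11.15 with NumPy 2.4.6 and pandas 2.3.3, and 18 overlap counts were checked against bedtools 2.31.1, of which 0 differed. Overlap counting was also tested on simulated peak lists. Peak coordinates, counted from 1, lay within NCBIM37. The members and gene lists were chosen with earlier results of these data known, so the lists are descriptions. Named genes were the 10 highest by score percentile among genes marked in both, lost and gained, up to 4 per outcome in each of 31 gene lists, and the genes the study examined. Ties were named together. Lost and gained genes with a peak of the other list touching the promoter window were left out of that ranking. Printed windows meet no annotated untranslated region. Input libraries were not analysed here. Some genes that meet the naming rule are not reported here.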

Additional observations from a re-analysis of the deposited data

Results flagged for a closer look

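The direction of 2 values was opposite in ES and NPC when PCGF5-depleted cells were set against wild type cells, and with 1 library per group the difference was not tested. The median width of H2AK119ub1 peaks had a log2 ratio of 0.03 in ES (217 bp in wild type and 222 bp in depleted cells) and of −0.29 in NPC (265 and 216 bp). The number of developmental regulators marked at the promoter had a log2 ratio of 0.19 in ES (197 and 224 genes) and of −0.19 in NPC (246 and 215 genes). The other 5 values compared had the same direction in both, among them peak number (−0.27 in ES and −0.58 in NPC) and covered length (−0.25 and −1.05).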

How the results depend on the processing

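No paired analysis was possible because each group has 1 library and the results come from no test. No log2 ratio or gap changed sign, and 57 of 89 recomputed values stayed within the counting interval of the value or within 1.5 times a count. The order of lost and gained genes (762 and 598) turned with equal numbers of top-scoring peaks, at 615 and 653, and with the other alternatives lost genes outnumbered gained ones. Of the wild type peaks (25.2% kept), 18.9% were kept when 50% of their length had to be overlapped, 38.5% with peaks within 1000 bp counted, 22.4% with such peaks merged and 28.0% with equal numbers of top-scoring peaks. Of the PCGF5-depleted peaks (30.6%) the values were 23%, 44.3%, 26.4% and 28.5%. The log2 ratio of covered length (−0.25) was −0.31 for the higher-scoring 50% of each list and −0.05 for equal numbers of peaks. The higher-scoring 50% gave 375 genes in both, 374 gained and 80.9% of developmental regulators marked in both, and a promoter window of 1000 bp gave 390, 391 and 76.9%. The gap between kept and lost peaks under H3K27me3 (37.8 percentage points) was 34.6 for the higher-scoring 50%, 34.4 within 1000 bp and 44.9 after merging. The gap at promoters (12) was 7.01 with an overlap of 50%, 1.85 for the higher-scoring 50%, 18.1 within 1000 bp, 15.0 after merging and 4.28 with the window of 1000 bp. Other alternatives were chosen after seeing the data. Without the crowded windows on chromosomes 6 and 8 the kept shares were 23.9% and 28.8% and the promoter gap 15.2. Without peaks on tandem repeats the kept shares were 22.7% and 29.0%, the promoter gap 16.7, the log2 ratio of peak number −0.36 (−0.27 with them) and that of covered length −0.31. The count of lost genes stayed within 1.5 times of 762 throughout. With 1 library per group and libraries of unequal depth, no value here separates PCGF5 from the library.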

Other observations

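The X chromosome held more H2AK119ub1 peaks in PCGF5-depleted ES, 82 in wild type and 98 in depleted cells, where the whole list was shorter. The gene Bcor alone held 2 of these peaks in wild type and 12 in depleted cells. Of the wild type peaks on the X chromosome 21 (25.6%) were kept. Runs of at least 8 copies of the dinucleotide of C and A within 500 bases around the centre were found in 7.68% (95% Wilson interval 6.64 to 8.87) of the kept wild type, 5.01% (4.51 to 5.57) of the lost and 10.2% of the gained peaks, against 2.14% of windows of the same length at start sites. Runs of at least 4 copies of GGAA, the repeat in the Fezf1 window, were found in 1.19% of the kept, 0.524% of the lost and 2.59% of the gained peaks. These differences have no replicate check, and the part of sequence repeats in them was not tested.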
